A study of Drosophila melanogaster with 5 samples.

Results

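Binding sites of Pita, a zinc-finger DNA-binding protein, were mapped in Drosophila melanogaster embryos by chromatin immunoprecipitation followed by sequencing (ChIP-seq), and the 1381 sites called against both available controls are described here. They are the intervals of the Pita list called against input DNA that overlapped, by at least 1 bp on the same sequence, an interval of the Pita list called against a precipitate made with preimmune rabbit serum. The input list held 1845 intervals and the preimmune list 1402, among 5386 rows in all peak lists of the series. The set was 74.9% of the input list (Wilson 95% interval 72.8 to 76.8), and the other 464 intervals were called against input alone. The demand for both calls favours high sites, so values of the 2 sets are set side by side as a description. All positions are on the dm3 genome build and are counted from 1.

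The precipitates were made from wild-type Oregon-R embryos, collected over 12 h at 25 °C and fixed with 1.8% formaldehyde for 15 min. The Pita library came from 50 µg of chromatin and a rabbit antibody raised against residues 550 to 683 of the protein. The controls were a preimmune precipitate, named rabbit IgG in the precipitation protocol and preimmune rabbit sera in its sample label, and input DNA from 0.5 µg of chromatin. All 3 libraries were single-read, 51 cycles long and without a replicate. The peak names give chromatin preparation A for Pita, and for the controls no source used here names one. Whole embryos of mixed stages were used, so a site bound in few cells and a site weakly bound in many cannot be told apart. With 1 library per group no difference was tested, and all intervals printed with shares, medians and counts cover counting error or the spread over sites, not the variation between embryos or precipitations.

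Pita belongs to the zinc-finger proteins with an amino-terminal ZAD domain, through which copies of the protein pair. It is described as an architectural or insulator protein. Such proteins sit at boundaries between regulatory domains, where they can keep an enhancer from acting on the promoter of a neighbouring domain, and they bring distant sites together. Pita recruits the cofactor CP190 and is known from boundaries of the bithorax complex, the gene cluster that sets the identity of the posterior body segments.

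Pita sites fell into a large group of low sites and a broad group of high ones, and the highest lay just under a common value. The height of a site was taken as its pileup, the number of Pita fragments stacked at the summit, which is the base of highest signal. It was solved from the authors' fold and p of each interval and came out for 100% of the 1845 input-list intervals as a whole number that gave the deposited p to within 0.001 in −log10 p. Over the 1381 sites called against both controls the pileup had a median of 224 fragments (interval of the median 197 to 241), with quartiles of 81 and 354 and a range of 30 to 436. Intervals called against input alone had a median of 37 (36 to 38), quartiles of 32 and 45 and a range of 24 to 265. In classes of 20 fragments, the input list was fullest at 40 to 59, with 322 intervals. It thinned to 26 intervals at 200 to 219 and filled again to 107 at 400 to 419.

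**Figure D1:**
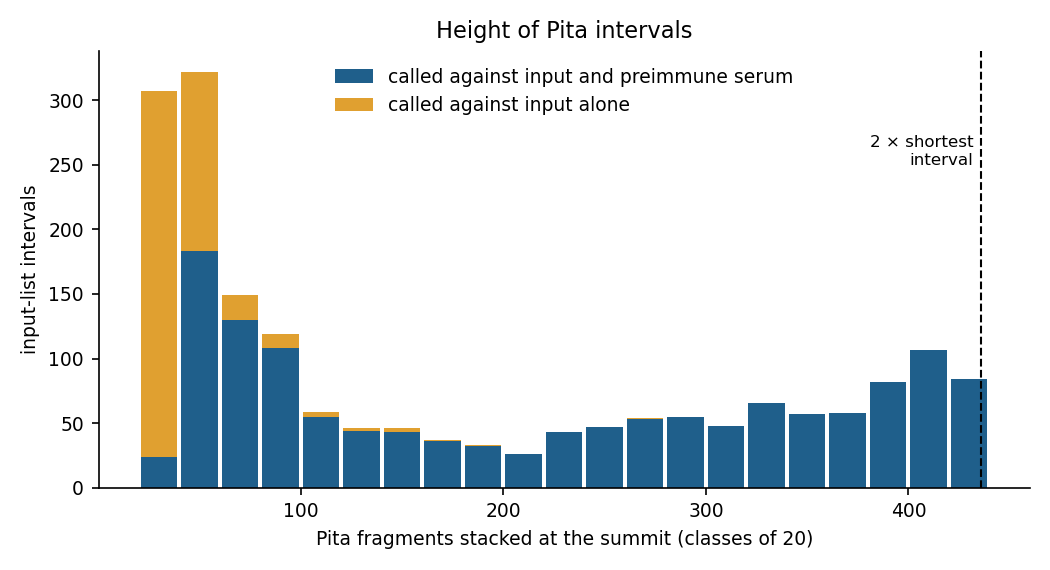
Number of Pita input-list intervals (y axis) by the number of Pita fragments at the summit (x axis, classes of 20). Blue bars are intervals called against both controls, and yellow bars on top of them are intervals called against input alone. The dashed line marks 436 fragments. The list has 1 group at the low end, where the yellow bars lie, and another that is fullest just below the line.

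The highest pileup, 436 fragments, equals 2 times the shortest interval of 218 bp. By default MACS2 calls no interval shorter than its estimated fragment, so 218 bp was taken as the fragment length. This product is the most fragments that can cover 1 base when each start position on each of 2 strands is kept once. No source used here says how duplicates were handled, and the part of such a limit in the shape of the high end was not tested. No interval of either list exceeded 436, and 218 of the 1381 sites (15.8%, 14.0 to 17.8) reached at least 90% of it. With a pileup at this value the fold over input cannot pass 42.9 and the fold over preimmune serum cannot pass 39.6. The highest observed folds were 42.8 and 39.4. The 10 sites of highest fold over input had 427 to 435 fragments, all within 10 of the limit, so no order among them is read here.

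Higher Pita sites were wider. The median width was 610 bp (596 to 625) with quartiles of 442 and 789 bp, against 275 bp (269 to 281) with quartiles of 240 and 327 bp for intervals called against input alone. By pileup, sites of 50 to 99 fragments had a median width of 405 bp, those of 200 to 249 fragments 639 bp, and those of 400 to 436 fragments 841 bp. Pileup and width had a Spearman rho of 0.79 over the 1381 sites, which share the same library and whose width and height come from the same fragments. Widths under 300 bp were found in 46 sites (3.33%), against 297 of the 464 intervals called against input alone (64.0%). The widest sites were 3R 794828 to 797208 at 2381 bp, 2R 1903063 to 1905274 at 2212 bp and 3R 27045096 to 27047175 at 2080 bp. Their summits lay at 79.9%, 20.8% and 15.9% of the interval, well off the centre in each. The preimmune-list intervals with the most overlap were 2221, 1006 and 2022 bp wide. The narrowest were 2L 10774103 to 10774320 at 218 bp, X 1081132 to 1081350 at 219 bp and 3L 9460945 to 9461172 at 228 bp, the last tied with a site on 3R. At these narrow sites 54, 41 and 46 Pita fragments were stacked.

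Summits were central and equally often on either side of the centre. The median distance from the centre of the interval was 31.5 bp (28.0 to 34.5), and 98.5% of summits (97.7 to 99.0) lay within 25% of the interval's width from its centre. Of the 1381 summits, 695 (50.3%, 47.7 to 53.0) were left of the centre. By this relative measure 92.0% (89.2 to 94.2) of intervals called against input alone were as central. In bp their summits lay closer to the centre, at a median of 22 bp (19.5 to 24.5). Within 50 bp of the centre lay 81.0% of their summits and 67.8% of the 1381. Distance from the centre in bp went with width, with a Spearman rho of 0.53 over the 1381 sites, and some of this is built in because wider intervals leave more room.

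**Figure D2:**
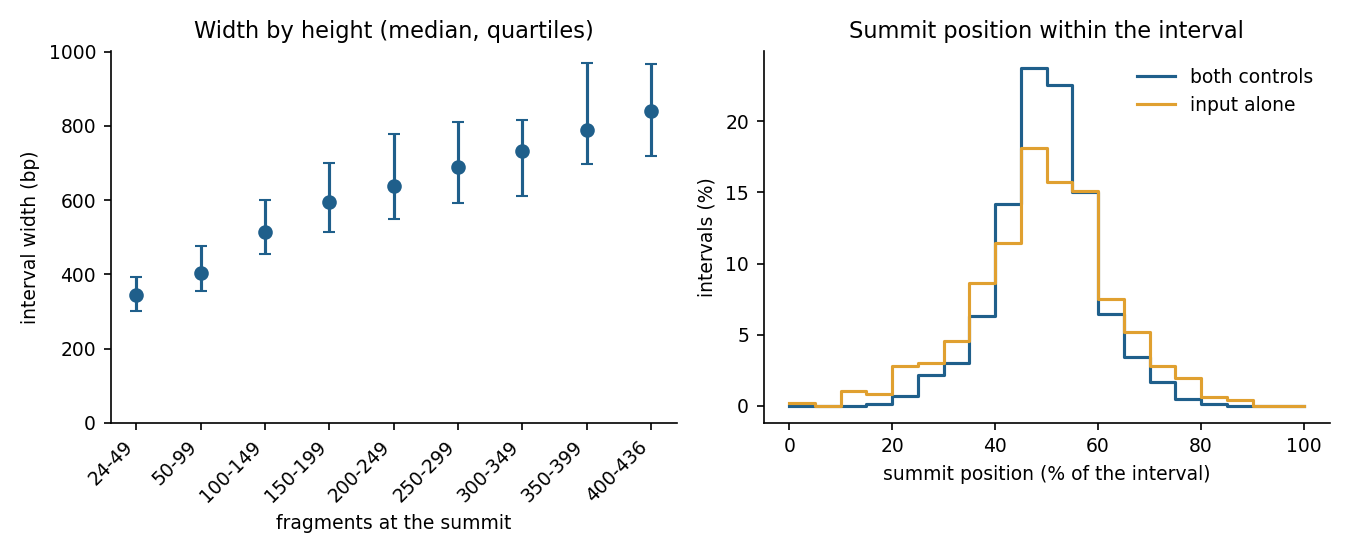
Left, width in bp (y axis) of sites called against both controls by the number of fragments at the summit (x axis). Points are medians and bars span the quartiles. Right, share of intervals (y axis, %) by summit position in percent of the interval (x axis, classes of 5), for sites called against both controls (blue) and intervals called against input alone (yellow). Medians run from 343.5 bp in the lowest class to 841 bp in the highest, and both curves on the right peak at the middle of the interval.

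Changing the control hardly moved a summit, and intervals called against preimmune serum were mostly narrower. Of the 1381 sites, 803 (58.1%, 55.5 to 60.7) had their summit at the same base in both lists, and 1378 (99.8%) within 50 bp. In all 803 the solved pileup was the same number of fragments in both lists. The scale of the preimmune list was fitted at these same summits, so this agreement is partly built in. The interval called against preimmune serum lay inside the one called against input at 1264 sites (91.5%, 89.9 to 92.9). The input-list interval was wider by a median of 81 bp (77 to 86), with quartiles of 43 and 134 bp. Its width was a median of 1.16 times that of the preimmune-list interval, with quartiles of 1.08 and 1.30 and a maximum of 3.30. At 12 sites the preimmune call split 1 input-list interval into 2. These positions come from the same Pita fragments, so the closeness of the summits is largely fixed by the shared library.

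The controls differed in depth far more than the lists show. In the input list Pita was not scaled, and each input fragment counted as 0.165, which puts the input library at 6.04 times the depth of the Pita library. In the preimmune list every interval could be solved by a whole number of Pita fragments times 0.5325, a scale fitted at the shared summits. Pita fragments were therefore taken as scaled down to a preimmune library 0.5325 times as deep. Input was thus 11.3 times as deep as the preimmune library. These ratios assume MACS2's default of scaling the deeper library to the shallower one. Where a control had no local excess, MACS2 used its genome-wide mean, the lowest background of the list, which corresponded to 55.5 input fragments or 4.89 preimmune fragments per 218 bp. A site's preimmune background therefore rests on few fragments and has a wide counting error.

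Most Pita sites had a higher fold over input than over preimmune serum. The median fold over input was 18.9 (17.4 to 20.5) with quartiles of 7.23 and 30.6, and the median fold over preimmune serum was 13.0 (12.1 to 14.1) with quartiles of 5.51 and 21.4. Fold over input was the higher at 1137 of 1381 sites (82.3%, 80.2 to 84.3). The fold over input divided by that over preimmune serum had a median of 1.22 (1.19 to 1.26), quartiles of 1.07 and 1.64 and a range of 0.517 to 6.98. With both backgrounds at their lowest, a site at the limit of 436 fragments would have a ratio of 1.08. The lowest site, with 30 fragments and both backgrounds at the lowest, had 1.06. A site without local excess in either control thus counts as higher over input, and part of the 82.3% follows from the formula. The ratio was above 2 at 181 sites (13.1%, 11.4 to 15.0) and under 0.8 at 60 (4.34%, 3.39 to 5.55).

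**Figure D3:**
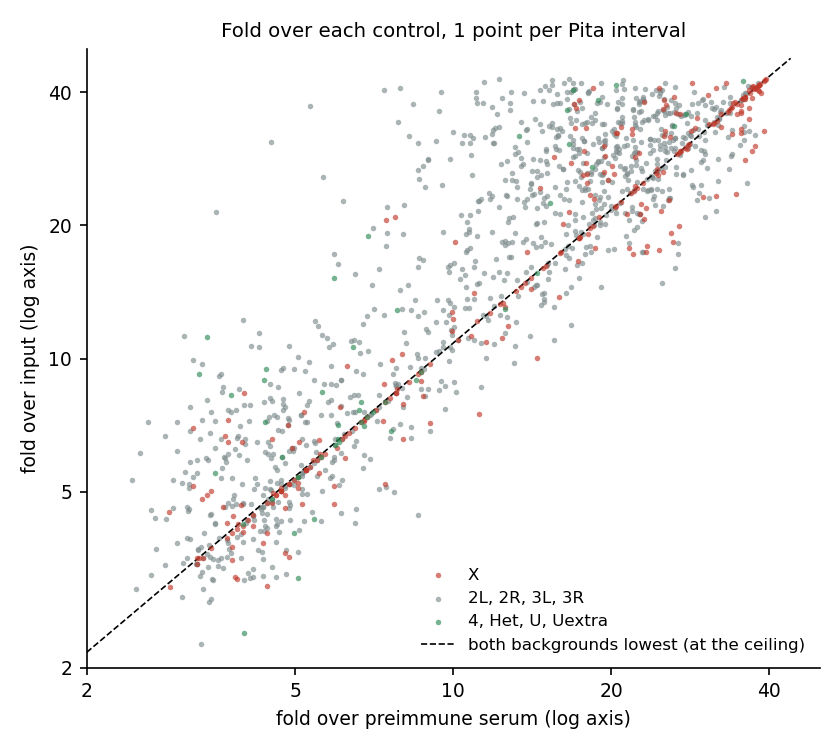
Fold over input (y axis, log scale) against fold over preimmune serum (x axis, log scale) for the 1381 sites called against both controls, 1 point per site. Red points are on X, grey points on 2L, 2R, 3L and 3R, and green points on chromosome 4, the Het sequences, U and Uextra. The dashed line is the ratio of 1.08 that both lowest backgrounds give at the limit. Many red points follow the line, and most grey points that leave it lie above.

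The ratio followed the preimmune background much more than the input background. Local background, given as a multiple of its list's lowest value, had a median of 1.08 (1.06 to 1.09) in input and 1.33 (1.25 to 1.43) in preimmune serum over the 1381 sites. It was at least 2 times the lowest at 9 sites in input (0.652%) and at 295 sites in preimmune serum (21.4%, 19.3 to 23.6). MACS2 takes the highest of the genome-wide mean and local windows of 218 bp, 1 kb and 10 kb, and these windows accounted for every background value of both lists. A value that several windows could give was assigned to the shortest of them. The 218-bp window set it at 157 sites in input (11.4%) and at 708 in preimmune serum (51.3%). Taking the highest of several windows raises a shallow control more than a deep one, and how much of the difference comes from this was not tested. Over the sites, Spearman rho with the ratio was −0.31 for the input and 0.86 for the preimmune background, both of which enter the ratio by construction.

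Input background hardly varied with the height of a site, while preimmune background was highest at the highest sites on the large autosomal arms. There the preimmune medians were 1.25 times the lowest at sites of 30 to 99 fragments and 1.64 at 300 to 436. On X both medians were 1.00, but 160 of 284 sites were at the lowest value, which can hide a rise. Upper quartiles on X were 1.11 at 30 to 99 fragments and 1.02 at 100 to 199. They were 1.23 at 200 to 299 and 1.43 at 300 to 436. Over all sequences, the medians in input were 1.08 times the lowest at sites of 200 to 249 fragments, 1.10 at 250 to 299, 1.14 at 300 to 349, 1.06 at 350 to 399 and 1.11 at 400 to 436. In preimmune serum the medians of the same classes were 1.38, 1.24, 1.59, 1.43 and 1.84. From 200 fragments up, 726 of 727 input-list intervals were called against both controls, so the choice of sites barely touches these classes. Of those 726 sites, 2 had an input background of at least 2 times the lowest and 210 (28.9%, 25.7 to 32.3) a preimmune background of at least 2 times the lowest. Sites under 100 fragments had lower preimmune medians, 1.02 at 24 to 49 fragments and 1.23 at 50 to 99, but there a high preimmune background also removes a site from the set.

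**Figure D4:**
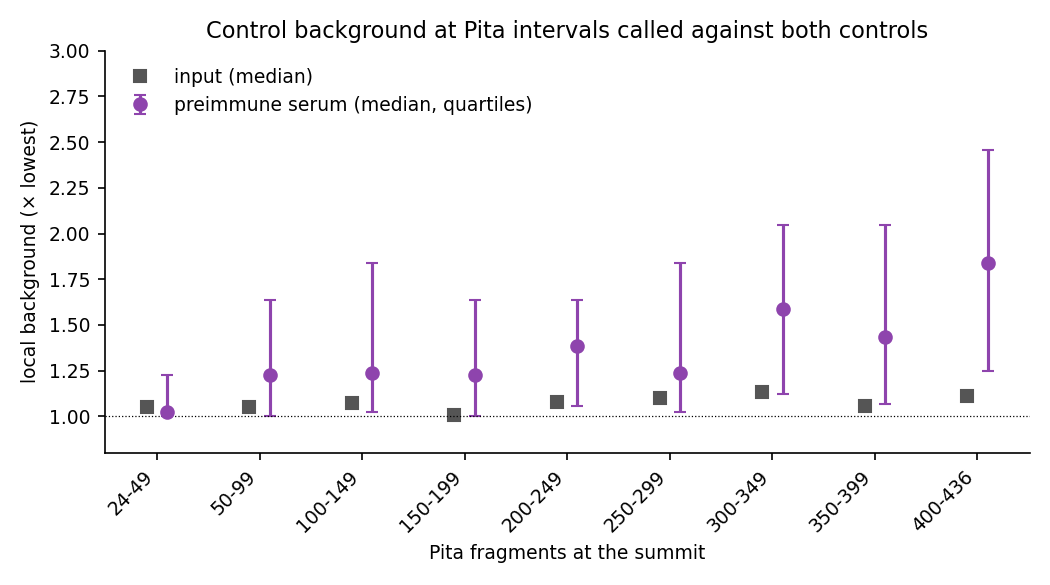
Local control background (y axis, as a multiple of the lowest value of its list) by the number of Pita fragments at the summit (x axis) for the 1381 sites called against both controls. Grey squares are medians in input, and purple points with bars are medians and quartiles in preimmune serum. The squares stay between 1.01 and 1.14, and the purple points run from 1.02 in the lowest class to 1.84 in the highest.

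Single sites show what this does to the fold. At 2R 8553005 to 8554084 there were 435 Pita fragments and 18 preimmune fragments (exact Poisson interval 10.7 to 28.4), and the fold was 42.8 over input and 12.2 over preimmune serum. At X 11588518 to 11589365 there were 434 Pita fragments with the preimmune background at its lowest, and the folds were 42.7 and 39.4. The 2 sites had nearly the same number of Pita fragments and very different folds over preimmune serum. Of the 191 sites of 400 to 436 fragments, 82 (42.9%) had a preimmune background of at least 2 times the lowest. Choosing the 10 sites of highest fold over input by itself requires an input background near the lowest. At 5 of these 10 the preimmune background was at least 2 times the lowest (50%, 23.7 to 76.3). Besides the 2R site these were 3L 6542862 to 6543917 with 13 preimmune fragments, 2L 18152217 to 18152987 with 10, 3R 12795114 to 12796058 with 14 and 3R 21706905 to 21707893 with 19. The others were X 3999453 to 4000251, X 15990380 to 15991344, 3RHet 2377815 to 2378966 and 2L 1909507 to 1910473, with preimmune backgrounds of 1.00 to 1.11 times the lowest.

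The highest ratio was found at 3L 606706 to 607495, where 378 Pita fragments stood beside 37 preimmune fragments (26.1 to 51.0), with folds of 37.2 over input and 5.32 over preimmune serum. It was followed by 2L 19571623 to 19572406, with 352 Pita and 41 preimmune fragments (29.4 to 55.6) and folds of 30.8 and 4.49. Next came 3R 24497717 to 24498319, 3R 6500626 to 6501516 and 2L 12520072 to 12520899, with ratios of 6.06, 5.47 and 5.15. All of these lay on the large autosomal arms, as did 1048 of all 1381 sites called against both controls. With so few high-ratio sites named, their arms are not read as a feature of high ratios. Both backgrounds enter the ratio. A high preimmune and a low input background at these sites, and the reverse at the sites of lowest ratio, thus follow from the choice. The Poisson intervals of the preimmune counts do not allow for it. The lowest ratio, 0.517, was at 3R 19881643 to 19881973, with folds of 4.43 over input and 8.58 over preimmune serum. There the input background was 2.20 times the lowest and the preimmune background was at the lowest. The next lowest were 3R 11738807 to 11739336, U 5303862 to 5304350, 3R 4134168 to 4134678 and U 10021864 to 10022233, with ratios of 0.592 to 0.632 and input backgrounds of 1.77 to 2.42 times the lowest.

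What the preimmune control removed were mostly the lowest sites. A fold over input of at least 10 was found at 903 of the 1381 sites called against both controls (65.4%, 62.8 to 67.9), against 3 of the 464 intervals called against input alone. The median fold over input was 18.9 at the sites and 3.34 (3.26 to 3.44) at the intervals called against input alone, of which 386 (83.2%, 79.5 to 86.3) had under 50 fragments. The share of input-list intervals called against both controls was 21.2% (17.8 to 25.1) at 24 to 49 fragments, 83.8% (79.9 to 87.0) at 50 to 99, 93.7% (88.0 to 96.7) at 100 to 149 and 99.9% from 200 up. After scaling by 0.5325, 47 of the 464 would miss the weakest p of the preimmune list even with the preimmune background at its lowest, and all of these had 24 to 28 fragments. For the other 417 the scaled pileup would pass at the lowest background and miss once the background reached a median of 1.58 times the lowest, with quartiles of 1.23 and 2.07. A preimmune background of at least 2 times the lowest would be needed for 107 of the 464 to be missed (23.1%, 19.5 to 27.1). Among all 1381 sites called against both controls it was measured at 295. By height these were 0 of 104 sites with 24 to 49 fragments and 45 of 341 with 50 to 99, the others being higher. Low sites with a high preimmune background drop out of that set, so these counts do not carry over to the 464. The preimmune background at the 464 intervals is not known, and the minimum length of a call was not part of this calculation.

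Of the 5 intervals called against input alone with the highest fold over input, all but 1 lay on unplaced sequence. On Uextra these were 5223886 to 5224573 with 265 fragments and a fold over input of 26.1, 26599203 to 26599710 with 157 fragments and 15.5, 27485237 to 27485654 with 111 and 11.0, and 27346820 to 27347264 with 98 and 9.73. Their absence from the preimmune list would need a preimmune background of 20.6, 10.9, 7.07 and 6.00 times the lowest. The fifth, 2R 11735444 to 11735859, had 106 fragments and a fold of 9.47, and would need 6.61 times the lowest.

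At the edge of the set, the sites of lowest significance over preimmune serum were X 9903901 to 9904416 with 30 fragments and a −log10 q of 1.92, 3L 11208313 to 11208872 with 38 and 2.47, and 2L 14108315 to 14108748 with 38 and 2.89. The lowest folds over preimmune serum were 2.44 at 2L 19416517 to 19417204, 2.48 at 3R 19104941 to 19105217 and 2.53 at 3R 10921321 to 10921766. The smallest overlaps between the lists were 205 bp at X 1081132 to 1081350, 208 bp at 2L 10774103 to 10774320 and 218 bp at 2L 833252 to 833561, the last tied with 2L 19416517 to 19417204. Requiring 50% of each interval to be covered would leave 1350 of the 1381 sites. Just outside, 3R 7171226 to 7171518 was 105 bp from the nearest preimmune-list interval, X 8301223 to 8301469 was 119 bp and 3L 18839426 to 18839691 was 131 bp away, with 34, 30 and 31 fragments.

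Every large arm carried Pita sites, and the X chromosome kept more of its intervals against preimmune serum than the autosomal arms did. X kept 284 of 336 (84.5%, 80.3 to 88.0), against 257 of 354 on 2L (72.6%, 67.7 to 77.0), 198 of 278 on 2R (71.2%, 65.6 to 76.2), 282 of 370 on 3L (76.2%, 71.6 to 80.3) and 311 of 402 on 3R (77.4%, 73.0 to 81.2). Per Mb up to the highest coordinate, the whole input list had 15.5 intervals on X, beside 15.5 on 2L, 13.9 on 2R, 15.4 on 3L and 14.4 on 3R. The intervals called against both controls numbered 13.1 per Mb on X, 11.3 on 2L, 9.92 on 2R, 11.8 on 3L and 11.2 on 3R. X was level with 2L in the input list, and above every large autosomal arm once the preimmune control was applied. This order is of point values, for which no counting interval was computed. Of the 1332 sites on the 5 large arms 21.3% were on X (19.2 to 23.6), against 12.7% (9.85 to 16.3) of the 408 intervals called there against input alone.

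**Figure D5:**
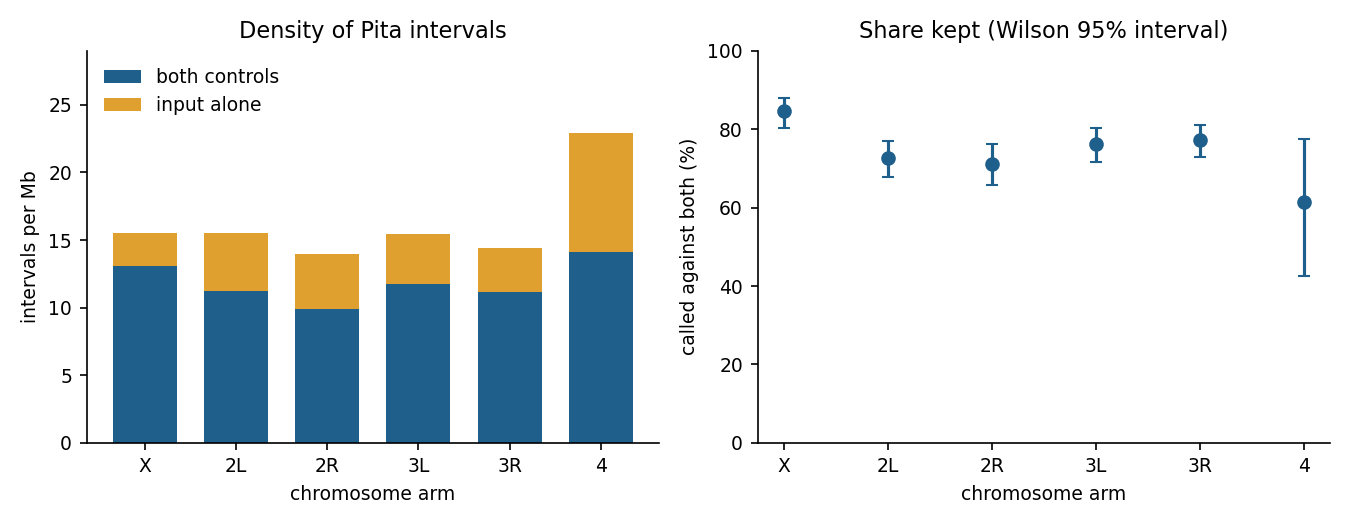
Left, Pita intervals per Mb (y axis) on X, 2L, 2R, 3L, 3R and chromosome 4, split into those called against both controls (blue) and against input alone (yellow). Right, share of input-list intervals called against both controls (y axis, %) with Wilson 95% intervals. Bars of the large arms reach similar heights, X has the thinnest yellow part, and its share of 84.5% lies above those of the other large arms.

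On X the control background was lower, and the same height gave a higher fold over preimmune serum. The input background was at its lowest at 161 of 284 sites on X (56.7%, 50.9 to 62.3), against 311 of 1048 on the large autosomal arms (29.7%, 27.0 to 32.5). For preimmune serum the counts were 160 on X (56.3%, 50.5 to 62.0) and 122 on the autosomal arms (11.6%, 9.84 to 13.7). Among sites of 300 to 436 fragments the median preimmune background was 1.00 times the lowest on X (90 sites) and 1.64 on the autosomal arms (403 sites), and the median ratio of folds was 1.08 and 1.47. Median pileups were 209.5 fragments on X (147 to 249) and 233 on the autosomal arms (216 to 253). Median folds over input, 18.2 (14.0 to 21.4) and 19.8 (18.0 to 21.4), overlapped in their intervals, and median folds over preimmune serum were 16.7 (12.6 to 18.3) and 12.9 (11.9 to 14.0). Among intervals under 100 fragments, X kept 105 of 157 (66.9%, 59.2 to 73.8) and the autosomal arms 310 of 665 (46.6%, 42.9 to 50.4). Background and the share kept thus moved together on X, and the part of the background in the share kept was not tested.

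The high end of the distribution was found on every large arm. At least 90% of the limit of 436 fragments was reached by 51 of 284 sites on X (18.0%, 13.9 to 22.8) and by 163 of 1048 on the autosomal arms (15.6%, 13.5 to 17.9). Among these arms 3R had the highest median pileup, 262 fragments, and the most sites near the limit, 63 of 311. The median pileups of 2L, 2R and 3L were 224, 239 and 221 fragments. The quartiles on 3R were 90 and 380 fragments and those on 3L 77.2 and 336.5, so the arms overlapped almost completely. The median width was 567.5 bp on X (504 to 602) against 629 bp (610 to 645) on the autosomal arms. Width went with height, and sites under 100 fragments were 105 of 284 on X and 310 of 1048 on the autosomal arms. Widths were not compared at equal height, so this difference is not read as a property of X.

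Most Pita sites lay over 10 kb from their nearest neighbour, and a minority lay within 5 kb of another. On the 5 large arms, 1332 summits had their nearest Pita neighbour at a median of 24.1 kb (22.3 to 26.9), with quartiles of 10.1 and 52.4 kb and a range of 0.424 to 825 kb. The median was 23.7 kb on X, 25.4 on 2L, 29.4 on 2R, 21.9 on 3L and 24.3 on 3R. A neighbour lay within 1 kb at 26 summits (1.95%, 1.34 to 2.84), within 2 kb at 70 (5.26%, 4.18 to 6.59), within 20 kb at 589 (44.2%) and within 100 kb at 1196 (89.8%). Summits no more than 5 kb from the next formed 77 pairs, 10 triples and 1 group of 4. The 188 summits in these runs had a median pileup of 217 fragments (165 to 273), beside 232.5 (213 to 249) for the 1144 others, so height did not separate them beyond the spread over sites.

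The group of 4 spanned 7308 bp on 3R. It began with 4126558 to 4127460, with 423 fragments and a fold over input of 32.0 and over preimmune serum of 28.3. The next, 4130863 to 4131421, had 376 fragments and folds of 26.9 and 33.5. It was followed by 4131996 to 4132408 with 72 fragments and 5.02 and 5.62, and by 4134168 to 4134678 with 291 fragments and 16.0 and 26.5. At the last 3 the fold over preimmune serum was the higher, whereas over all sites the fold over input was the higher at 1137 of 1381 (82.3%). Local windows of 10 kb overlap at these sites, so they are not separate cases and the order is not read as a trait of the group.

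The closest neighbours were low. On 3R, summits in 12437019 to 12437391 and 12437459 to 12437799 were 424 bp apart, with 74 and 58 fragments and 67 free bp between the intervals. On 3L, 15361341 to 15361680 and 15361756 to 15362257 had summits 458 bp apart, with 44 and 34 fragments. On 2L, 17734539 to 17735138 and 17735296 to 17735851 were 802 bp apart, with 122 and 94 fragments. The longest stretches without a site called against both controls were 825 kb on 3L after 22975148 to 22975523, 823 kb on 2R after 15028573 to 15029176 and 735 kb on X after 13739767 to 13740247. The 3L, 2R and X stretches held 2, 7 and 1 intervals called against input alone.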

How the data were processed

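Only the Pita library and its 2 peak lists were described. Per the submitters' processing notes, the tools were cutadapt, Bowtie and MACS2 (2.1.0.20140616) and the build was dm3. No source used here gives arguments, thresholds or the handling of duplicates. The deposited lists have the 10 narrowPeak columns, and per their names each was called on the single Pita library against 1 control. The authors' fold compares an interval's summit with the background around it. Each interval also has a deposited −log10 p and −log10 q, and the lowest −log10 q was 1.85 against input and 1.92 against preimmune serum. In 100% of the intervals, the deposited score equalled the whole-number part of 10 times its −log10 q. These are the authors' values, used to describe and rank intervals.

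Each input-list interval was matched to the preimmune-list interval with the most overlap. Fold was taken as (pileup + 1)/(background + 1) and p as the Poisson upper tail above the pileup. Solving both gave whole pileups for the input list. At 803 summits shared by both lists these fixed the scale of the preimmune list, after which all 1402 preimmune-list intervals were solved, 4 of them with 2 solutions within 0.001 of the −log10 p. The step between background values gave the scale of each control. The solution was tested on 1200 simulated intervals at scales like those of the lists. It recovered 100% of the pileups, and the window of 98.3% and 98.4% of the backgrounds of the 2 simulated lists. At other scales these were 100%, 98.1% and 98.4%. The simulated controls had no local excess, and the lowest pileups of the lists were not covered. Total reads are not known. Intervals of medians are order-statistic 95% intervals. No gene or sequence is named at a site, because the gene table at hand is of another build. ZIPIC and Zw5 lists served only for arm lengths and the count of rows.

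The sites and summaries were chosen with earlier results of these data known. Sites named singly are the 10 of highest fold over input, the 5 highest and 5 lowest ratios, the 5 highest called against input alone, the 3 widest and narrowest, the closest and most distant neighbours, the longest run within 5 kb, those at the edge of the set and all intervals called against preimmune serum alone. The software was scipy 1.17.1, pandas 2.3.3, matplotlib 3.10.9 and numpy 2.4.6 under Python 3.11.15.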

Additional observations from a re-analysis of the deposited data

How the results depend on the processing

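Requiring 50% of each interval to be covered, requiring the summit inside the preimmune interval, and keeping the 5 large arms alone left within their printed intervals the median width, summit distance, pileup, folds, ratio and nearest-summit distance, the share on X, the share called against both controls and the median fold of intervals called against input alone. With 50% cover required, the fold of intervals called against input alone was taken over the 495 input-list intervals that missed this rule. Other shares and the values by arm or class were not recomputed. A −log10 q of at least 10 in both lists kept higher sites, with a median width of 652.5 bp and a pileup of 270 fragments. Their folds were 22.9 over input and 15.6 over preimmune serum, with a ratio of 1.26 and a nearest summit at 29220 bp. Of the 1515 input-list intervals at that threshold, 77.4% reached it in both lists. The other 343 had a median fold over input of 4.42. These 343 missed the threshold in the preimmune list, and they include intervals called there at a lower −log10 q. Their fold is thus not that of intervals called against input alone. All input-list intervals together had a median width of 502 bp, a summit 27.5 bp from the centre, a pileup of 109 fragments, a fold of 9.48 over input and a nearest summit at 17722.5 bp. The preimmune list's own intervals had a median width of 519.5 bp and a summit 24.5 bp from the centre, and 99.4% of them were found in the input list. The alternatives choose other sites, which is how they move these values. The share called against both controls has no value for the whole input list, and the fold of intervals called against input alone has none for either single list. No paired analysis was possible because each group has 1 library. The shallow preimmune library limits the backgrounds, and the limit of 436 fragments limits the order of the highest sites.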

Other observations

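Outside the large arms, Pita sites were few and the preimmune control removed many of them. Chromosome 4, the small and largely heterochromatic autosome, held 26 input-list intervals, of which 16 were called against both controls (61.5%, Wilson 95% interval 42.5 to 77.6), or 14.1 per Mb. The input list had 22.9 per Mb on chromosome 4, against 13.9 to 15.5 on the large arms. Its 14.1 per Mb called against both controls compares with 9.92 to 13.1 there. Chromosome 4 was thus not sparse for its length, though its densities rest on few intervals. The 16 sites had a median pileup of 133.5 fragments, with a range of 58 to 421. The preimmune background was at least 2 times the lowest at 8 of the 16, and the fold over input was more than 2 times that over preimmune serum at 8. Sites named outside the large arms were chosen after their values were seen. The highest were 4 855269 to 856942, with 421 fragments and folds of 41.5 over input and 20.5 over preimmune serum, and 4 1133237 to 1134395, with 411 fragments and folds of 40.5 and 16.9. The site at 4 506839 to 507880 had 363 fragments, folds of 35.8 and 27.8, and a preimmune background of 1.23 times the lowest.

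Assembled heterochromatin and unplaced sequence held few high sites. Of 41 intervals on Uextra 7 were called against both controls (17.1%, 8.53 to 31.3), and their pileups ran from 53 to 145 fragments. On U the count was 15 of 24, with a median pileup of 76, on 2RHet 6 of 8 with 95, on 3RHet 4 of 5 with 245.5, and on XHet 1 of 1 with 80. The highest were 3RHet 2377815 to 2378966 with 430 fragments, 3RHet 2106761 to 2107709 with 399, U 3395995 to 3396604 with 344 and 2RHet 822648 to 823212 with 275.

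The preimmune list held 9 intervals that overlapped none of the input list, and all were low, with 34 to 62 fragments and folds over preimmune serum of 2.88 to 5.78. On X they were 21526698 to 21527102, 21527213 to 21527480 and 21636732 to 21636999, all within the last stretch of the arm, whose highest coordinate in any list is 21682900. On 2R they were 2810673 to 2810914 and 9791920 to 9792140, on 3R 1296389 to 1296608, on U 4470646 to 4471197, and on Uextra 621597 to 622056 and 21021251 to 21021802. Their pileups would miss the weakest p of the input list only at an input background of 1.86 to 4.09 times the lowest. Of the 1381 sites called against both controls 9 had an input background of at least 2 times the lowest. Low sites with a high input background drop out of that set. The input background at these 9 intervals is not known.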
